A study of Mus musculus with 24 samples.

Results

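Retinas of BALB/c mice that had been kept at 6% oxygen for 6 h and had then reoxygenated in darkness in room air for 4 h were compared with those of mice that had stayed in room air (normoxic controls). The comparison rests on 6 of the 24 arrays of the series, all those titled hypoxic at 4 h and all those titled normoxic at 4 h. Each array held biotin-labelled RNA of 1 pool of 3 retinas from 3 different mice, so that each group had 3 independent pools. The mice were wild-type albino animals kept under standard conditions, and neither their age nor their sex is given in the sources used here. The deposited treatment text also mentions an exposure to white light after reoxygenation, and does not say whether it was given to the mice of these arrays, while the titles and the extraction text place the retinas by time after hypoxia alone. Whole retinas were pooled, so that signals are sums over all retinal cell types. The other 18 arrays, from retinas taken 0, 2 and 16 h after hypoxia and from their controls, served to estimate the spread and to set the effect at 4 h against that at the other time points.

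As background, hypoxic preconditioning is a sublethal period of low oxygen that raises the resistance of the retina to a later insult such as intense light. In low oxygen the prolyl hydroxylases that mark the alpha subunits of the hypoxia-inducible factors (HIF) for degradation lose activity, the factors accumulate, and genes of glycolysis, angiogenesis and oxygen sensing are transcribed. On return to room air the subunits are degraded within minutes, whereas the messenger RNAs, and whatever the proteins made from them have set in motion, decay at their own rates. The retina is one of the tissues with the highest oxygen use, most of it by the photoreceptors, and Müller glia, the radial glia of the retina, respond to injury with cytokine and acute phase genes.

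Of 45037 probe sets on the array, a probe set being a group of short probes for a transcript, 18498 had a mean log2 signal of at least 6.69 in either group and were tested. With limma and Benjamini-Hochberg adjustment, 264 of them (1.43%) were called at an adjusted p under 0.05, 162 higher (0.876%) and 102 lower (0.551%) in hypoxic than in normoxic retinas. The differences were small. Their median size was 0.50 on the log2 scale, 131 of the 264 stayed under 0.5, and 14 exceeded 1, a 2-fold difference (9 higher and 5 lower). The 3 hypoxic and the 3 normoxic pools did not overlap in any called probe set, against 27.3% of all those tested. The called probe sets with 1 gene symbol named 133 higher and 78 lower genes. In 36 of the 264 the mean of 1 group lay below 6.69, where a difference is one of measured signals and not a ratio of transcripts.

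The 6 arrays were alike in scale, with medians between 5.81 and 5.84. The Euclidean distance over all probe sets was 41.8 to 45.5 among the hypoxic pools and 42.7 to 53.4 among the normoxic pools, and 44.8 to 59.3 between a hypoxic and a normoxic pool, so the ranges overlapped. Markers showed the tissue to be retina. All 16 rod photoreceptor markers measured passed the signal filter, with a list mean of 13.01 to 13.09 in hypoxic pools and 13.10 to 13.17 in normoxic pools, and none of 5 erythroid markers passed it. The crystallins and other genes listed as lens markers were also bright and varied between pools. Whether their signal came from lens tissue was not tested. Their list mean lay between 10.60 and 11.65 in hypoxic pools and between 11.40 and 11.93 in normoxic pools, and no lens marker was called. Of the 264 called probe sets, 61 kept an adjusted p under 0.05 when any 1 of the 6 pools was left out, 29 higher and 32 lower, and 35 lost it whichever pool was left out. Where leaving out a pool ended the call of a gene on the probe set described, the pools are given with it.

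**Figure D1:**
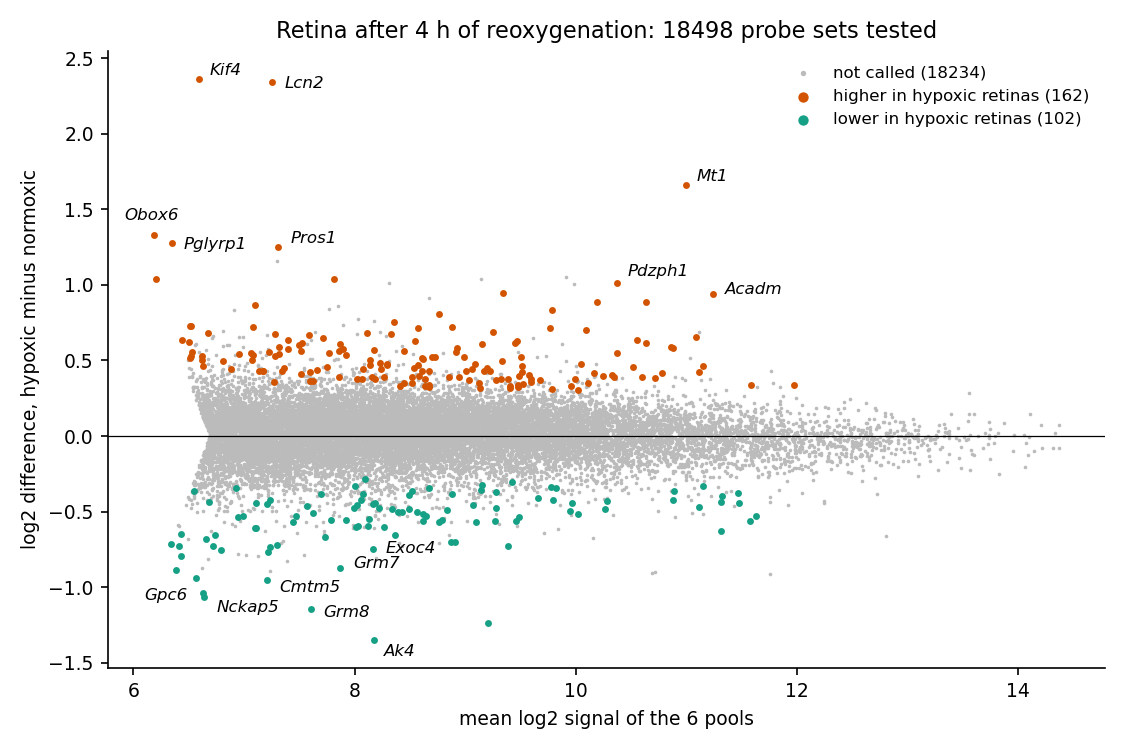
Mean log2 signal of the 6 pools (x axis) against the log2 difference, hypoxic minus normoxic (y axis), for each of the 18498 probe sets tested at 4 h, with the called probe sets coloured by direction. None of the called probe sets is among the brightest, and most lie within 1 of zero.

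Several of the largest rises belonged to genes that were also higher at the earlier time points. Pros1, which encodes protein S, a vitamin K-dependent anticoagulant and a ligand of the phagocytosis receptor Mertk, had log2 signals of 8.01, 7.99 and 7.80 in the hypoxic pools and 6.69, 7.04 and 6.31 in the normoxic pools. All hypoxic pools lay above all normoxic pools, whose mean of 6.68 was just below the signal threshold of 6.69. The difference of 1.25 (standard error 0.17, adjusted p = 0.000378) compares with 0.83 at 0 h, 0.84 at 2 h and -0.09 at 16 h, and it was larger at 4 h than at 16 h by 1.34 (adjusted p = 0.0186). Camk1d, a calcium/calmodulin-dependent protein kinase, measured 10.62, 10.56 and 10.74 in the hypoxic pools and 9.70, 9.92 and 9.63 in the normoxic pools with 1 probe set. Both of its probe sets rose by 0.89, and this one differed by 1.07 at 0 h and 1.14 at 2 h, but by 0.06 at 16 h. Mt1, the zinc-binding metallothionein 1, had 12.16, 11.73 and 11.58 in the hypoxic pools and 10.68, 10.14 and 9.67 in the normoxic pools. Its difference was 1.66 (standard error 0.18, adjusted p = 3.23e-05), with 2.21 at 0 h and -0.09 at 16 h. Of the 162 probe sets higher at 4 h, 73 were called higher and 27 lower at 0 h, and 98 were called higher and 1 lower at 2 h. Calls made up 32.4% of the probe sets tested at 0 h and 16.6% at 2 h, and limma called 0 of 18423 at 16 h, where 1172 (6.36%) had an unadjusted p under 0.05.

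Of 19 tested genes of the list of metallothioneins and antioxidant enzymes Mt1 rose and 1 fell, with a median difference of -0.05 against 0.03 over all 10059 tested genes, each gene being represented by the probe set with its highest mean over the series. Lists are counted on these probe sets, and calls on other probe sets of a member are named beside the count. Called shares by gene were 0.934% higher and 0.646% lower. Mt2, a related metallothionein, differed by 1.05 (adjusted p = 0.0711) and did not pass the test, with pools that overlapped. The gene that fell was Gstt1, a glutathione transferase, with 8.79, 8.91 and 8.75 in the hypoxic pools and 9.38, 9.37 and 9.40 in the normoxic pools and a difference of -0.57 (standard error 0.12, adjusted p = 0.0122). Its call was lost without hypoxic replicate 1 or 3 or normoxic replicate 3 (adjusted p 0.0559 to 0.0765). Kif4, a chromosome-associated kinesin, and Lcn2, the siderophore-binding lipocalin 2, had the largest rises. Kif4 measured 7.53, 7.73 and 8.07 in the hypoxic pools and 5.51, 5.26 and 5.46 in the normoxic pools, a difference of 2.36 (standard error 0.17, adjusted p = 4.75e-08). Lcn2 measured 9.50, 8.15 and 7.61 in the hypoxic pools and 6.29, 6.21 and 5.73 in the normoxic pools, a difference of 2.34 (standard error 0.36, adjusted p = 0.00133). The normoxic pools of both genes lay below the signal threshold, and hypoxic replicate 1 had the highest Lcn2 signal. In the list of mitosis genes only 4 of 22 measured genes were bright enough to be tested, and Kif4 was the 1 called. Kif4 passed the signal filter through the hypoxic pools alone, so that a higher hypoxic level was a condition of its being tested. Pglyrp1, a peptidoglycan recognition protein of neutrophil granules, had 7.09, 7.03 and 6.84 in the hypoxic pools and 5.89, 5.72 and 5.52 in the normoxic pools and a difference of 1.28 (standard error 0.27, adjusted p = 0.0186), a call that was lost without hypoxic replicate 1 or 2 or normoxic replicate 3 (adjusted p 0.0593 to 0.101). Its normoxic pools also lay below the signal threshold. Of 9 measured neutrophil markers, a list drawn up after values had been seen, Lcn2 and Pglyrp1 passed the signal filter through the hypoxic pools alone, so that a higher hypoxic level was a condition of their being tested, and the other 7 were below the threshold in both groups.

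Genes of the Lif-Stat3 pathway and of reactive glia lay mostly above the controls, and few passed the test. Of 11 tested, 9 differences were positive and the median was 0.44, against 0.03 over all genes tested, but Lcn2 alone was called on its brightest probe set. Edn2, the endothelin that stressed photoreceptors release, differed by 1.16 (adjusted p = 0.234), Serpina3n, an acute phase protease inhibitor, by 0.77 (adjusted p = 0.198), the transcription factor gene Cebpd by 0.76 (adjusted p = 0.198), the oncostatin M receptor gene Osmr by 0.61 (adjusted p = 0.221) and the transcription factor gene Stat3 by 0.38 (adjusted p = 0.228) on its brightest probe set. A dimmer probe set of Stat3 differed by 0.58 (adjusted p = 0.0227), a call lost without hypoxic replicate 1 or 2 or normoxic replicate 1 or 3 (adjusted p 0.0628 to 0.179). The hypoxic pools differed among themselves in this list, with list means of 7.11 to 7.74, against 6.72 to 7.22 in the normoxic pools. At 2 h the median was 0.42 and at 16 h -0.03. Among 17 tested clock genes Cry1, a repressor of the circadian feedback loop, was the 1 called. Cry1 had 9.89, 9.65 and 9.82 in the hypoxic pools and 9.13, 9.25 and 9.09 in the normoxic pools, and the groups did not overlap. Its difference of 0.63 (standard error 0.12, adjusted p = 0.00715) was lost without hypoxic replicate 1 (adjusted p = 0.0647), and it was 0.13 at 0 h, 0.69 at 2 h and -0.03 at 16 h. The median of the list was -0.03.

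Acadm, the medium-chain acyl-CoA dehydrogenase of mitochondrial fatty acid oxidation, rose at 4 h on a bright probe set. Its log2 signals were 11.83, 11.55 and 11.76 in the hypoxic pools and 10.79, 10.78 and 10.74 in the normoxic pools, and the difference was 0.94 (standard error 0.09, adjusted p = 1.04e-05). Set against the effects at 0, 2 and 16 h, it was larger by 0.94, 0.63 and 0.83 (adjusted p = 4.38e-05, 0.0325 and 0.00545), and Acadm was 1 of 3 called probe sets that differed from all other time points. The hypoxic mean was 11.65 at 2 h and 11.71 at 4 h, whereas the normoxic mean was 11.34 at 2 h, 10.77 at 4 h and 11.05 at 16 h. Among 19 tested genes of fatty acid oxidation, a list drawn up after values had been seen, Cpt1a was also called higher. Cpt1a, the carnitine palmitoyltransferase that admits long-chain fatty acids to mitochondria, differed by 0.46 (standard error 0.10, adjusted p = 0.0186) on 1 of its 3 tested probe sets, a call lost without hypoxic replicate 1 or 3 or normoxic replicate 1 or 3 (adjusted p 0.0654 to 0.134). Among the other 17, the carrier gene Slc25a20 and the coactivator gene Ppargc1a were called on a probe set other than the brightest, at 0.53 (adjusted p = 0.0234) and 0.44 (adjusted p = 0.0369), a call lost without hypoxic replicate 1 or 2 or normoxic replicate 1 or 3 (adjusted p 0.0646 to 0.182) for Slc25a20 and without hypoxic replicate 1, 2 or 3 or normoxic replicate 1 or 3 (adjusted p 0.0742 to 0.162) for Ppargc1a. The list had a median of 0.17.

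To see which group moved, the hypoxic and the normoxic pools of 4 h were each set against the 9 normoxic pools of 0, 2 and 16 h, a comparison chosen after values had been seen. It shares its 4 h pools with the comparison above and is not independent of it. Since the probe sets were chosen by their difference at 4 h, both parts lean in its direction, and time point and group cannot be told apart. Against the other normoxic pools 8.64% of probe sets were called in the hypoxic pools (786 higher and 813 lower) and 0.804% in the normoxic pools of 4 h (41 higher and 107 lower). Over the 162 probe sets higher at 4 h the median was 0.30 in the hypoxic pools and -0.17 in the normoxic pools, and over the 102 lower ones -0.47 and 0.03. Over all tested probe sets these medians were 0.01 and -0.02. The falls lay mostly in the hypoxic pools, and a part of the rises lay in low normoxic pools.

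For Glmn, which encodes glomulin, a regulator of cullin-RING ubiquitin ligases, the normoxic pools of 4 h were the ones apart from the other controls. Glmn measured 10.36, 10.01 and 10.24 in the hypoxic pools and 9.41, 9.35 and 9.35 in the normoxic pools, a difference of 0.83 (standard error 0.12, adjusted p = 0.00076). Set against the other normoxic pools it was 0.01 (adjusted p = 0.964) in the hypoxic and -0.82 (adjusted p = 0.000183) in the normoxic pools of 4 h. Pdzph1, a PDZ domain protein, had 10.97, 10.69 and 10.97 in the hypoxic pools and 9.98, 9.81 and 9.81 in the normoxic pools and a difference of 1.01 (standard error 0.14, adjusted p = 0.000542). It too was close to the other normoxic pools in the hypoxic pools, at 0.18 (adjusted p = 0.364), and low in the normoxic pools, at -0.84 (adjusted p = 0.00101). St8sia1, the sialyltransferase that makes ganglioside GD3, was -0.09 (adjusted p = 0.678) in hypoxic and -0.81 (adjusted p = 0.00101) in normoxic pools, and Antxr2, an anthrax toxin receptor that binds basement membrane, 0.22 (adjusted p = 0.486) and -0.81 (adjusted p = 0.0367). The 4 h call of St8sia1 (difference 0.72, adjusted p = 0.00715) was lost without hypoxic replicate 1 (adjusted p = 0.0651) and that of Antxr2 (difference 1.04, adjusted p = 0.0186) without hypoxic replicate 1 or normoxic replicate 3 (adjusted p 0.119 to 0.169). Cpt1a was also close to the other normoxic pools in the hypoxic pools, at 0.12 (adjusted p = 0.395), and low in the normoxic pools, at -0.34 (adjusted p = 0.0485). Acadm lay between, at 0.47 (adjusted p = 0.000505) and -0.47 (adjusted p = 0.00363). By contrast Pros1 was 1.15 (adjusted p = 2.24e-05) in hypoxic and -0.10 (adjusted p = 0.797) in normoxic pools, Camk1d 1.14 (adjusted p = 4.24e-08) and 0.25 (adjusted p = 0.157), and Cry1 0.55 (adjusted p = 0.00147) and -0.08 (adjusted p = 0.739).

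**Figure D2:**
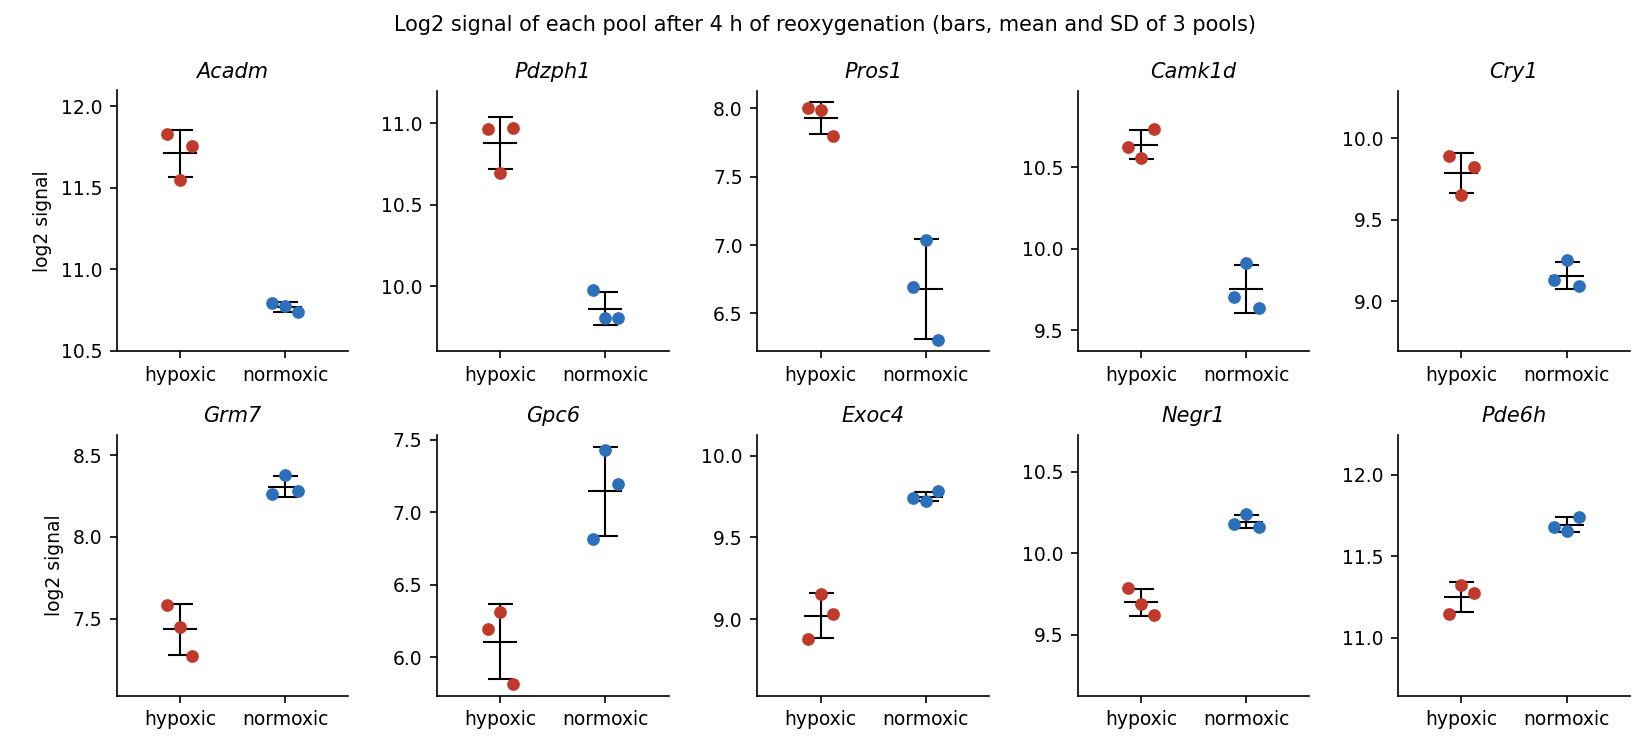
Log2 signal (y axis, its own range for each gene) of the 3 hypoxic and the 3 normoxic pools at 4 h for 5 genes that rose and 5 that fell, with the mean and SD of each group as bars. No hypoxic pool overlapped a normoxic pool in any of the 10 genes, and the normoxic pools of Acadm lay within 10.74 to 10.79.

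**Figure D3:**
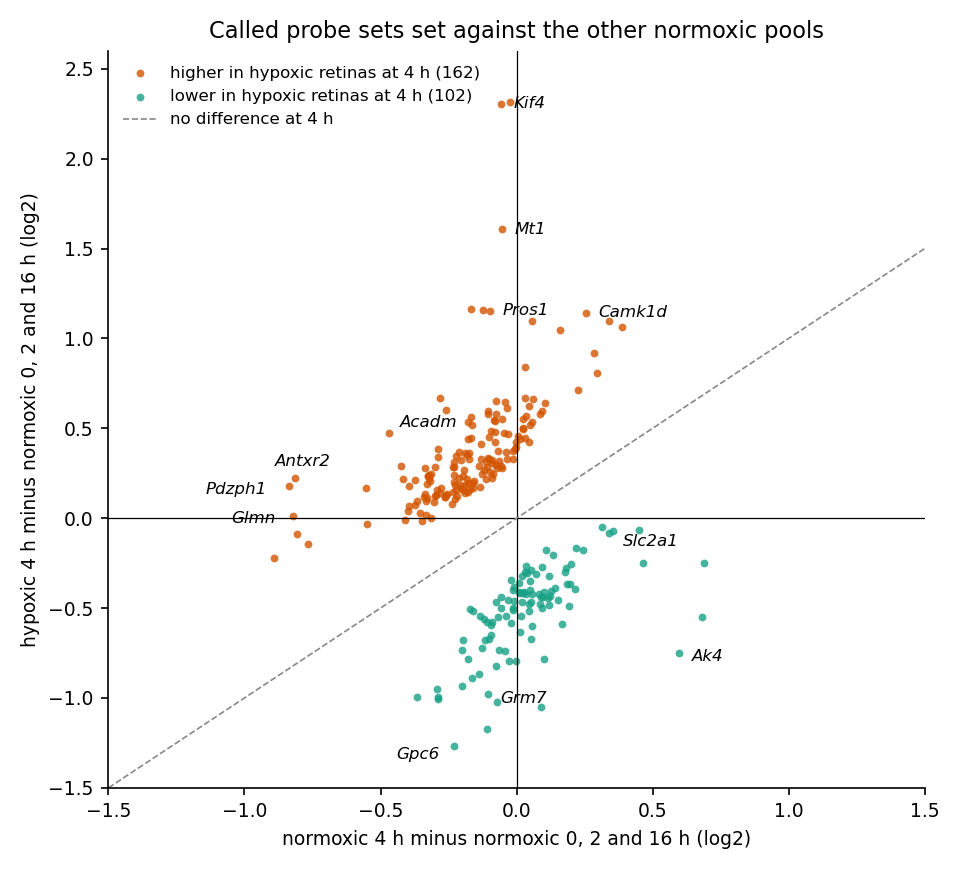
Each called probe set by the log2 difference of the normoxic 4 h pools (x axis) and of the hypoxic 4 h pools (y axis) from the 9 normoxic pools of 0, 2 and 16 h, with the dashed line where both agree. Glmn and Pdzph1 lie to the left near zero height, that is with low controls, while Grm7 and Gpc6 lie below, with low hypoxic pools.

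Among the genes that fell, metabotropic glutamate receptors, the G protein-coupled receptors for glutamate, had some of the largest differences. Grm7, a receptor of presynaptic terminals, had 7.59, 7.45 and 7.27 in the hypoxic pools and 8.26, 8.38 and 8.28 in the normoxic pools. The groups were separated by more than the range within either. The difference was -0.88 (standard error 0.11, adjusted p = 0.000212), against -0.02 at 0 h, -0.15 at 2 h and 0.17 at 16 h. The effect at 4 h differed from each of these, by -0.86, -0.73 and -1.04 (adjusted p = 0.000795, 0.0465 and 0.0054). Grm8, a related receptor of the same subgroup, measured 6.91, 7.13 and 7.07 in the hypoxic pools and 7.97, 8.19 and 8.36 in the normoxic pools. Its difference was -1.14 (standard error 0.13, adjusted p = 5.06e-05), against -0.74 at 2 h. Of 11 tested glutamate receptor genes these 2 fell and none rose, and the median was -0.22. Grm7 was, relative to the other normoxic pools, -0.98 (adjusted p = 1.5e-06) in the hypoxic and -0.10 (adjusted p = 0.65) in the normoxic pools of 4 h.

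Of 20 tested genes of neuronal adhesion and guidance 8 were called lower (40%, against 0.646% of all genes), none was called higher, and 18 differences were negative with a median of -0.36. The list was written after values had been seen. Gpc6, a heparan sulphate proteoglycan of the glypican family that promotes excitatory synapses when released by astrocytes, had 6.19, 6.31 and 5.82 in the hypoxic pools and 6.82, 7.43 and 7.19 in the normoxic pools with 1 probe set, a difference of -1.04 (standard error 0.15, adjusted p = 0.00063), and all 3 tested probe sets were called, between -1.04 and -0.72. On the probe set given, the hypoxic pools lay below the signal threshold. The effect was 0.14 at 0 h and -0.03 at 2 h. Negr1, a neuronal growth regulator of the immunoglobulin superfamily, measured 9.79, 9.69 and 9.62 in the hypoxic pools and 10.18, 10.24 and 10.16 in the normoxic pools. Its difference was -0.49 (standard error 0.08, adjusted p = 0.00163), against 0.00 at 2 h. Ephb1, a receptor for B ephrins, differed by -0.67 (standard error 0.10, adjusted p = 0.00112), Sdk2, a sidekick protein that guides synaptic layering in the retina, by -0.56 (standard error 0.08, adjusted p = 0.00115), and Pcdh9, a protocadherin, by -0.56 (standard error 0.10, adjusted p = 0.00686) on 1 of 3 tested probe sets. The other 3 were less firm. Shtn1, shootin 1 of growth cones, differed by -0.57, a call lost without hypoxic replicate 1 or normoxic replicate 3 (adjusted p 0.0614 to 0.108), Igdcc4 by -0.47, a call lost without hypoxic replicate 1 or 3 or normoxic replicate 2 or 3 (adjusted p 0.0618 to 0.14), and Pcdh7 by -0.44, a call lost without any 1 of the 6 pools (adjusted p 0.0737 to 0.256). Dcc, the netrin receptor, was called on a dimmer probe set only, at -0.65 (adjusted p = 0.0186), a call lost without hypoxic replicate 1, 2 or 3 or normoxic replicate 2 or 3 (adjusted p 0.0527 to 0.0905). The hypoxic mean of that probe set lay below the signal threshold.

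Of 19 tested genes of the active zone and of vesicle release, a list written with values known, the brightest probe set was called lower in 2 and higher in none. Exoc4, a subunit of the exocyst that tethers secretory vesicles to the plasma membrane, had 8.88, 9.15 and 9.03 in the hypoxic pools and 9.75, 9.72 and 9.78 in the normoxic pools on its brightest probe set. That difference was -0.73 (standard error 0.09, adjusted p = 5.06e-05), and all 4 tested probe sets were called, between -0.75 and -0.46. Of the other 3, the call at -0.46 was lost without hypoxic replicate 1, 2 or 3 or normoxic replicate 1 or 3 (adjusted p 0.0644 to 0.233) and that at -0.75 without hypoxic replicate 1 (adjusted p = 0.0532). Erc2, a scaffold of the active zone, measured 8.12, 7.91 and 7.86 in the hypoxic pools and 8.54, 8.59 and 8.57 in the normoxic pools, a difference of -0.60 (standard error 0.10, adjusted p = 0.00209), whereas it had been 0.21 at 0 h and 0.21 at 2 h. The other 17 were not called on their brightest probe set, and the median of all 19 was -0.12. On other probe sets the active zone genes Rims1 and Rims2 differed by -0.45 (adjusted p = 0.0113) and 0.39 (adjusted p = 0.0406), and the dynamin gene Dnm3 by -0.44 (adjusted p = 0.0234), so that Rims2 ran against the others. These calls were lost without hypoxic replicate 1 or normoxic replicate 2 (adjusted p 0.0568 to 0.0905) for Rims1, without hypoxic replicate 1 or 3 or normoxic replicate 1, 2 or 3 (adjusted p 0.0752 to 0.178) for Rims2 and without hypoxic replicate 2 or 3 or normoxic replicate 1 or 3 (adjusted p 0.0678 to 0.115) for Dnm3. Cacna2d3, an auxiliary subunit of voltage-gated calcium channels, was the 1 of 12 tested calcium channel genes that passed, with 9.76, 9.83 and 9.71 in the hypoxic pools and 10.25, 10.31 and 10.28 in the normoxic pools and a difference of -0.52 (standard error 0.09, adjusted p = 0.00565). Kcnd2, the potassium channel Kv4.2 of A-type currents, fell on both tested probe sets, with -0.51 (adjusted p = 0.0234) and -0.73 (adjusted p = 0.0118). The first call was lost without hypoxic replicate 1 or 3 or normoxic replicate 1, 2 or 3 (adjusted p 0.0554 to 0.185), and the second without hypoxic replicate 1 or 2 (adjusted p 0.0521 to 0.102), while without normoxic replicate 2 that probe set was too dim to be tested. Its hypoxic mean lay below the signal threshold.

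Enzymes of calcium and cAMP signalling moved in both directions. Of 22 tested, 3 rose and 2 fell on their brightest probe set. On other probe sets Camk2d and the G protein gene Gna13 were called higher, Gna13 at 0.56 (adjusted p = 0.0192), and the G protein gene Gnal lower, at -0.34 (adjusted p = 0.034). The call of Gna13 was lost without hypoxic replicate 1 or 2 or normoxic replicate 1 or 3 (adjusted p 0.0721 to 0.139) and that of Gnal without hypoxic replicate 1, 2 or 3 or normoxic replicate 1 or 3 (adjusted p 0.0653 to 0.222). Camk1d rose as above. Rgs20, a regulator of G protein signalling that acts on the Gz subunit, rose by 0.72 (adjusted p = 0.00845) on its brightest probe set, a call lost without hypoxic replicate 1 or normoxic replicate 3 (adjusted p 0.0618 to 0.0814), and by 0.86 (adjusted p = 0.00447) on a dimmer one, with 7.47, 7.75 and 7.37 in the hypoxic pools and 6.83, 6.90 and 6.28 in the normoxic pools. The normoxic mean of the dimmer one, 6.67, lay just below the signal threshold. Adcy1, a calcium-stimulated adenylyl cyclase, rose by 0.42 (adjusted p = 0.0106) on its brightest probe set, a call lost without hypoxic replicate 1 or 3 or normoxic replicate 3 (adjusted p 0.0502 to 0.0765), and by 0.68 (adjusted p = 0.00603) on a dimmer one. Prkg1, a cGMP-dependent protein kinase, differed by -0.49 (standard error 0.09, adjusted p = 0.00862), a call lost without hypoxic replicate 3 (adjusted p = 0.0655), and Plcb1, a phospholipase C, by -0.39 (standard error 0.08, adjusted p = 0.0124), a call lost without hypoxic replicate 1 or 3 or normoxic replicate 2 or 3 (adjusted p 0.0585 to 0.0859). Ppp2r2b, a regulatory subunit of protein phosphatase 2A in neurons, rose by 0.59 (standard error 0.10, adjusted p = 0.00319), with normoxic pools of 4 h at -0.37 (adjusted p = 0.0334) against the other normoxic pools and hypoxic pools at 0.21 (adjusted p = 0.104). Cmtm5, a small membrane protein of the chemokine-like factor family, differed by -0.95 (adjusted p = 0.000553), and Tmtc4, which adds mannose to cadherins in the endoplasmic reticulum, measured 8.40, 8.76 and 8.51 in the hypoxic pools and 9.21, 9.27 and 9.28 in the normoxic pools. Tmtc4 differed by -0.54 at 0 h and -0.89 at 2 h and by -0.70 at 4 h, and its effect at 4 h lay -0.80 from that at 16 h (adjusted p = 0.00579).

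**Figure D4:**
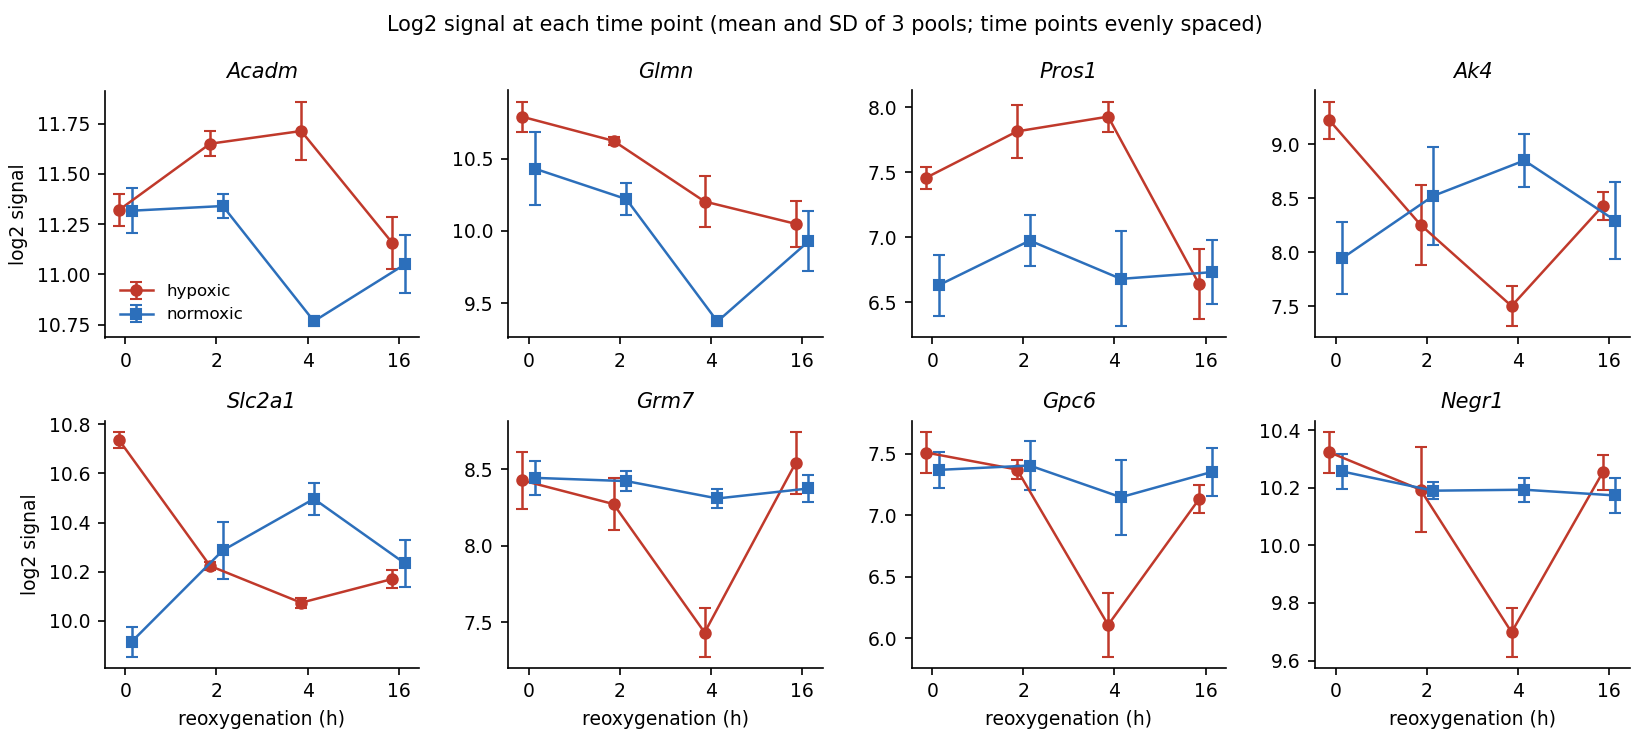
Log2 signal (y axis, its own range for each gene) in hypoxic and normoxic pools at 0, 2, 4 and 16 h of reoxygenation, as the mean and SD of 3 pools each, for 8 genes. At 4 h the hypoxic means of Grm7, Gpc6 and Negr1 drop below a level normoxic line, whereas for Acadm, Glmn, Ak4 and Slc2a1 the normoxic mean at 4 h also departs from that at the other times.

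Many of the genes that fell were long. Genomic span, the distance from the first to the last annotated base in GRCm38.p6, was known for 99.84% of the tested genes, and the split at 300 kb was chosen after values had been seen. Of the 65 genes called lower on their representative probe set 17 (26.15%) spanned over 300 kb, against 3 of 94 called higher (3.19%) and 314 of all 10043 (3.13%). Seen from the other side, 5.41% of the genes over 300 kb were called lower, and 0.34% to 0.68% in each of the 4 shorter bins. The 17 were Prkg1 (1201 kb, chromosome 19), Gpc6 (1055 kb), Pcdh9 (879 kb), Erc2 (856 kb) and Cacna2d3 (818 kb), the last 4 on chromosome 14, Grm7 (922 kb), Grm8 (860 kb), Exoc4 (725 kb) and Kcnd2 (514.5 kb) on chromosome 6, Nckap5 (917 kb, chromosome 1), Negr1 (755 kb, chromosome 3), Plcb1 (689 kb) and Galnt13 (682 kb) on chromosome 2, Adgrv1 (538 kb, chromosome 13), Car10 (505 kb, chromosome 11), Ephb1 (433 kb, chromosome 9) and Pcdh7 (417 kb, chromosome 5). Among those not described above, the call of Car10 was lost without hypoxic replicate 1 or 3 or normoxic replicate 2 or 3 (adjusted p 0.0704 to 0.238) and that of Galnt13 without hypoxic replicate 1 or normoxic replicate 2 or 3 (adjusted p 0.0536 to 0.134). The genes called higher with such a span were the histone deacetylase gene Hdac9 (869.5 kb), Camk1d (421 kb) and Ppp2r2b (414 kb). The count of 17 was 11 to 19 when 1 pool was left out and 7 when the 6 arrays were fitted alone.

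The genes over 300 kb as a whole lay slightly lower in the hypoxic pools. Of the 314 genes over 300 kb 71.0% had a negative difference, against 42.4% of all tested genes, and their median was -0.09 at 4 h, against -0.01 at 0 h, -0.13 at 2 h and 0.00 at 16 h. At 2 h 63 of 835 genes called lower (7.55%) had such a span, against 1.156% of those called higher and 3.205% of all tested. At 0 h it was 30 of 1897 called lower (1.58%), against 2.206% of those called higher and 3.16% of all tested. Genes over 300 kb had somewhat lower signal, with a median level of 8.43, against 8.67 to 8.79 in the other bins, and several of the 17 are in the lists of adhesion, glutamate receptor and release genes, so that span, level and function overlap. Their median signal relative to all genes was -0.13, -0.05 and -0.01 in the hypoxic pools and 0.04, 0.11 and 0.04 in the normoxic pools, so that hypoxic replicate 1 lay lowest and the groups did not overlap. Against the other normoxic pools the 314 genes had a median of -0.14 in the hypoxic and -0.06 in the normoxic pools of 4 h, and the 17 called genes -0.60 and -0.07. Nckap5 had the largest difference of the 17 apart from Grm8, with 5.35, 6.52 and 6.46 in the hypoxic pools and 7.01, 7.44 and 7.07 in the normoxic pools and -1.06 (standard error 0.24, adjusted p = 0.0223), but with hypoxic pools below the signal threshold and a call lost without hypoxic replicate 1 or normoxic replicate 1, 2 or 3 (adjusted p 0.0523 to 0.169).

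**Figure D5:**
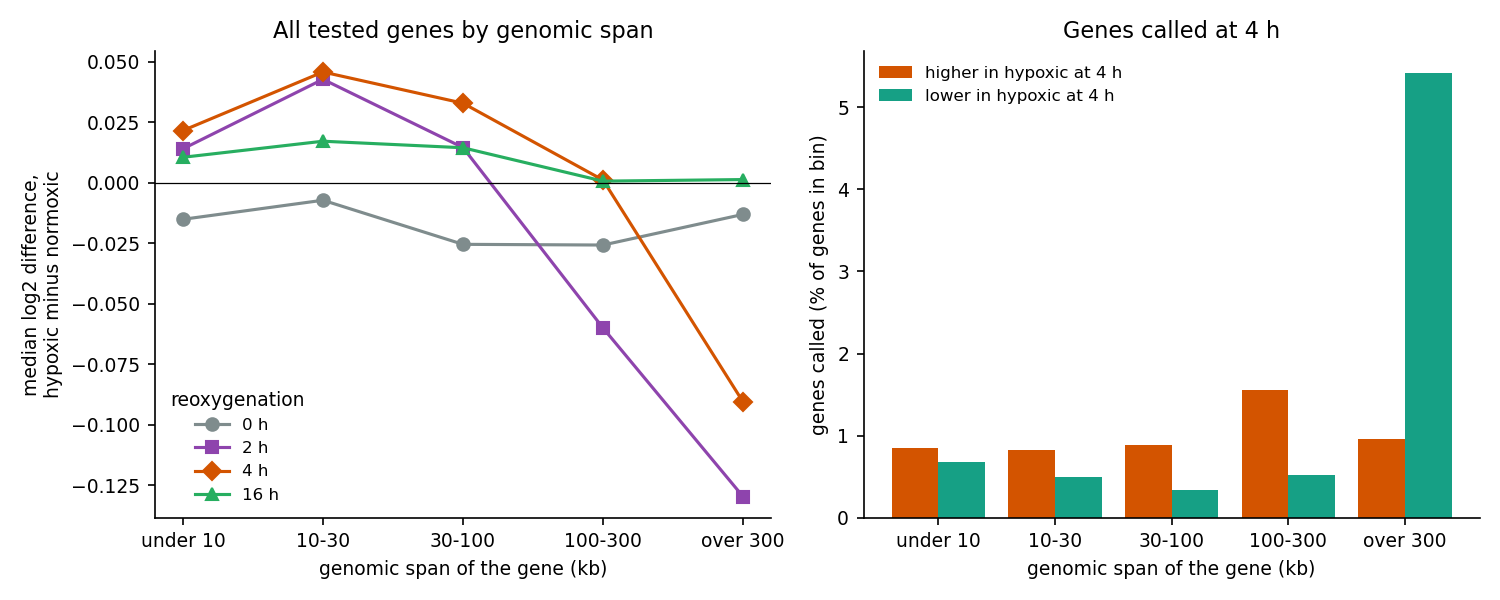
Left, the median log2 difference, hypoxic minus normoxic, of all tested genes (y axis) by genomic span in kb (x axis) at 0, 2, 4 and 16 h of reoxygenation. Right, the percent of genes in each span bin called higher or lower at 4 h, where genes over 300 kb have 5.41% called lower and 0.96% called higher.

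Classical HIF-1 targets, which had been high directly after hypoxia, were close to or below the level of the controls at 4 h. Of 14 tested targets 12 differences were negative, 11 with pools that did not overlap (1041 of all 10059 genes did so in this direction), and the median was -0.23, against 0.93 at 0 h and -0.10 at 2 h. Vegfa, the vascular endothelial growth factor gene, differed by -0.32 (adjusted p = 0.196), the prolyl hydroxylase gene Egln1 by -0.31 (adjusted p = 0.221), and the collagen hydroxylase genes P4ha1 and P4ha2 by -0.38 and -0.36 (adjusted p = 0.0668 and 0.112). The 1 gene called in this list was Ak4, a mitochondrial adenylate kinase. Ak4 had 7.29, 7.61 and 7.61 in the hypoxic pools and 8.58, 9.06 and 8.91 in the normoxic pools on 1 probe set, and all 3 tested probe sets were called, with differences of -1.35 to -0.94. On the probe set with -0.94 the hypoxic mean lay below the signal threshold. Against the other normoxic pools the probe set whose pools are given was -0.75 (adjusted p = 0.0113) in the hypoxic and 0.60 (adjusted p = 0.113) in the normoxic pools of 4 h. The probe set with a difference of -1.23 was at -0.55 (adjusted p = 0.0408) and 0.68 (adjusted p = 0.0534). The one with -0.94 was at -0.25, too dim to be tested there, and 0.69 (adjusted p = 0.0235). On these the normoxic pools of 4 h lay further from the other normoxic pools than the hypoxic pools did. Over the list the medians were -0.01 in the hypoxic and 0.25 in the normoxic pools.

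Glucose handling genes gave few calls. Of 20 tested genes of glycolysis and glucose uptake Pfkfb3 was called lower on the representative probe sets, and 15 differences were negative with a median of -0.10. Pfkfb3, which makes the fructose bisphosphate that activates phosphofructokinase, had 6.67, 6.88 and 6.84 in the hypoxic pools and 7.29, 7.56 and 7.37 in the normoxic pools, a difference of -0.61 (standard error 0.11, adjusted p = 0.00447), against 1.19 at 0 h. Slc2a1, the glucose transporter GLUT1, had 10.08, 10.09 and 10.05 in the hypoxic pools and 10.42, 10.53 and 10.54 in the normoxic pools on 1 of 3 tested probe sets, a difference of -0.43 (standard error 0.07, adjusted p = 0.00319). The hypoxic pools lay close together and below all normoxic pools. Set against the other normoxic pools, the hypoxic pools were at -0.07 (adjusted p = 0.483) and the normoxic pools of 4 h at 0.35 (adjusted p = 0.00431). Slc2a1 in normoxic controls was on average 9.91 directly after the hypoxic period of the treated mice, 10.29 and 10.50 at 2 and 4 h, and 10.23 at 16 h. Pgm1, phosphoglucomutase, differed by -0.42 (standard error 0.09, adjusted p = 0.0214), a call lost without hypoxic replicate 1 or 3 or normoxic replicate 2 or 3 (adjusted p 0.0522 to 0.138), and Ero1a, the oxidase that forms disulphides in the endoplasmic reticulum, by -0.52 (standard error 0.13, adjusted p = 0.0472) on 1 of 3 probe sets, a call lost without any 1 of the 6 pools (adjusted p 0.0783 to 0.249).

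In 14 probe sets, 3 of them without a gene symbol, a call higher at 0 h stood against a call lower at 4 h, and the rest belonged to 9 genes, among them Ak4, Pfkfb3, Slc2a1, Ero1a and Pgm1. The core of the hypoxia response element, ACGTG or on the other strand CACGT, occurred in a promoter of 6 of the 8 of these genes (75%) for which RefSeq promoters of 300 bases were at hand, in 13 of 15 HIF-1 targets (86.7%), in 30.4% of all tested genes, in 34.5% of the genes higher and 25% of the genes lower at 4 h, and in 21.8% of all genes. A match describes the sequence and not binding. The promoters given here run from 250 bases before to 50 bases after the annotated start, are taken from RefSeq on GRCm38.p6, and carry ACGTG or CACGT in capitals. The genes shown had opposite differences at the start and at 4 h of reoxygenation, and each carries the core. Not shown are Arrdc3, with the core in 1 of 3 annotated promoters, and Slc30a1, whose annotated promoter lacks it. The core was in 1 of 4 annotated Ak4 promoters, the one shown, where it is read on both strands of 1 palindrome, and in both annotated promoters of Pfkfb3, of which 1 is shown.
Ak4 (chr4:101419453-101419752, plus strand): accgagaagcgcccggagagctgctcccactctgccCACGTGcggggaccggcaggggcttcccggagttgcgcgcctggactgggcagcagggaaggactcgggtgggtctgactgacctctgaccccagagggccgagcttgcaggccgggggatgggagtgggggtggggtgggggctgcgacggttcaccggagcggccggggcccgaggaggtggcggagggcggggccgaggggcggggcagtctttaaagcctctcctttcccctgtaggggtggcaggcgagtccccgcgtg
Slc2a1 (chr4:119108495-119108794, plus strand): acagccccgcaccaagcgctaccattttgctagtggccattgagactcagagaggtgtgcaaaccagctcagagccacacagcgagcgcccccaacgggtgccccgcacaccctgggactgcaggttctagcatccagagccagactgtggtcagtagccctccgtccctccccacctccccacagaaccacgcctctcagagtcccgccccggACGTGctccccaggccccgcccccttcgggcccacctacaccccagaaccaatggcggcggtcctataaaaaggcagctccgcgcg
Ero1a (chr14:45318523-45318822, minus strand): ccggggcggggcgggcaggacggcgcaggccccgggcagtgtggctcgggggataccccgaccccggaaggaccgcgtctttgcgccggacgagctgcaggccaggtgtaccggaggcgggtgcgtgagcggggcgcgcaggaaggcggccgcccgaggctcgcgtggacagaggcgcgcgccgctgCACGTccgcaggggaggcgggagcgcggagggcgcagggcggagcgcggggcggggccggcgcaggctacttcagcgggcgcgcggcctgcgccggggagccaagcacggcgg
Pfkfb3 (chr2:11553880-11554179, minus strand): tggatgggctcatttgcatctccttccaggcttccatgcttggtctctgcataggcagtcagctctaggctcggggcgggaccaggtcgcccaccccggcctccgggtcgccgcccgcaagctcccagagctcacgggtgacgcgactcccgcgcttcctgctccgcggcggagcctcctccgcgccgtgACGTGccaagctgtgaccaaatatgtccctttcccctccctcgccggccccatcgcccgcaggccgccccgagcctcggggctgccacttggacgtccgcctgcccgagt
Pgm1 (chr4:99929201-99929500, plus strand): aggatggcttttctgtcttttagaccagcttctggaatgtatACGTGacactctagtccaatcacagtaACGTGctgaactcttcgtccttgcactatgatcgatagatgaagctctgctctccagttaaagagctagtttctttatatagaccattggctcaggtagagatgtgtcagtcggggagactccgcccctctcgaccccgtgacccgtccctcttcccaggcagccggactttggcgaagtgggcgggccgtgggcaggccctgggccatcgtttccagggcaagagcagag
The first base of the core lies at position -36 from the start in Slc2a1, -63 in Ero1a and -60 in Pfkfb3, and Pgm1 has the core at 2 positions.

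The others of the 9 genes were Slc30a1, the zinc exporter ZnT1, with 8.25, 8.82 and 8.50 in the hypoxic pools and 9.27, 9.30 and 9.11 in the normoxic pools, Arrdc3, an arrestin domain protein, Scd2, a stearoyl-CoA desaturase, and Prkg1. Slc30a1 differed by 0.58 at 0 h and by -0.70 (standard error 0.15, adjusted p = 0.0138) at 4 h, a call lost without hypoxic replicate 1 or 3 or normoxic replicate 1 or 2 (adjusted p 0.0522 to 0.134). Arrdc3 differed by 1.43 at 0 h and by -0.48 (adjusted p = 0.0324) at 4 h, a call lost without hypoxic replicate 1 or 3 or normoxic replicate 1, 2 or 3 (adjusted p 0.0646 to 0.193). Opposite in direction, 27 probe sets, of 22 genes and 1 without a gene symbol, were called lower at 0 h and higher at 4 h. They included Apex2, an endonuclease of base excision repair, with -0.71 at 0 h and 0.50 (standard error 0.10, adjusted p = 0.0107) at 4 h, and Suv39h2, a histone H3 lysine methyltransferase, with -0.69 and 0.51 (standard error 0.12, adjusted p = 0.0324). Apex2 was lost without hypoxic replicate 1 or normoxic replicate 1 (adjusted p 0.0553 to 0.0948) and Suv39h2 without any 1 of the 6 pools (adjusted p 0.0521 to 0.148). Gm13583, which is named by the annotation only, had -1.10 at 0 h and 0.58 (standard error 0.09, adjusted p = 0.00229) at 4 h, and here the normoxic pools of 4 h were at -0.40 (adjusted p = 0.0169) against the other normoxic pools and the hypoxic pools at 0.18 (adjusted p = 0.15).

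Of 22 tested genes of DNA replication and repair, a list written after values had been seen, 5 were called higher (22.7%, against 0.934% of all genes) and none lower, 20 differences were positive, and the median was 0.24, against -0.05 at 0 h, 0.19 at 2 h and 0.03 at 16 h. Nsmce2, a SUMO ligase of the SMC5-SMC6 complex, had 9.15, 9.26 and 9.18 in the hypoxic pools and 8.70, 8.68 and 8.55 in the normoxic pools and a difference of 0.56 (standard error 0.08, adjusted p = 0.00084). It was also called higher at 0 h, at 0.49, and at 2 h, at 0.75. Apex2, described above, was the fifth gene called. Mcm5, a subunit of the replicative helicase, differed by 0.51 (adjusted p = 0.0186), a call lost without hypoxic replicate 2 or 3 or normoxic replicate 1 or 3 (adjusted p 0.0671 to 0.0992), Pms2, a mismatch repair protein, by 0.44 (adjusted p = 0.0197), a call lost without hypoxic replicate 1 or 3 or normoxic replicate 1 or 2 (adjusted p 0.0602 to 0.129), and Parp1, the poly(ADP-ribose) polymerase of strand breaks, by 0.32 (adjusted p = 0.0324), a call lost without any 1 of the 6 pools (adjusted p 0.0604 to 0.223). Mcm5 passed the signal filter through the hypoxic pools alone, with means of 6.77 in hypoxic and 6.25 in normoxic pools. A higher hypoxic level was thus a condition of its being tested. The list had medians of 0.06 in the hypoxic and -0.16 in the normoxic pools of 4 h against the other normoxic pools. By the same measure Pms2 was at 0.04 (adjusted p = 0.812) and -0.40 (adjusted p = 0.0164), so that its normoxic pools were the ones apart. Nsmce2 was at 0.48 and -0.08, Apex2 at 0.59 and 0.09, Mcm5 at 0.28 and -0.23, and Parp1 at 0.15 and -0.18. On probe sets other than the brightest, 3 further members were called. The ribonucleotide reductase gene Rrm1 differed by 0.39 (adjusted p = 0.0186), the helicase gene Mcm7 by 0.44 (adjusted p = 0.049) and the flap endonuclease gene Fen1 by 0.38 (adjusted p = 0.033). Rrm1 was lost without hypoxic replicate 1, 2 or 3 or normoxic replicate 1 or 2 (adjusted p 0.0548 to 0.0874), Mcm7 without any 1 of the 6 pools (adjusted p 0.0618 to 0.228) and Fen1 without any 1 of the 6 pools (adjusted p 0.0618 to 0.153). Against the other normoxic pools Fen1 was at 0.03 (adjusted p = 0.862) in the hypoxic and -0.35 (adjusted p = 0.0234) in the normoxic pools of 4 h. Rrm1 was at 0.13 and -0.25 and Mcm7 at 0.38 and -0.07.

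Of 23 tested genes of cholesterol synthesis and uptake 4 were called lower (17.4%, against 0.646% of all genes) and none higher. Idi1, isopentenyl diphosphate isomerase, had 8.52, 8.49 and 8.44 in the hypoxic pools and 8.83, 9.14 and 9.17 in the normoxic pools, a difference of -0.57 (standard error 0.11, adjusted p = 0.00948) on 1 of 2 tested probe sets, a call lost without normoxic replicate 3 (adjusted p = 0.0651). Insig1, the membrane protein that retains the sterol sensor in the endoplasmic reticulum, had 6.18, 6.44 and 6.61 in the hypoxic pools and 7.04, 7.06 and 7.10 in the normoxic pools, so that the hypoxic mean lay below the signal threshold. Insig1 thus passed the signal filter through the normoxic pools alone, and a lower hypoxic level was a condition of its being tested. Its difference was -0.66 (standard error 0.15, adjusted p = 0.0267), a call lost without hypoxic replicate 1 or 2 or normoxic replicate 1, 2 or 3 (adjusted p 0.0643 to 0.199). Sqle and Msmo1, enzymes that act on squalene and on methylsterols, differed by -0.36 and -0.41 (adjusted p = 0.0477 and 0.0487). Sqle was lost without hypoxic replicate 1 or 3 or normoxic replicate 1, 2 or 3 (adjusted p 0.0984 to 0.269) and Msmo1 without any 1 of the 6 pools (adjusted p 0.084 to 0.21). Against the other normoxic pools the list had a median of -0.31 in the hypoxic pools of 4 h, with 12 of 23 genes called lower (52.2%, against 5.12% of all genes) and none higher, and a median of -0.13 with no gene called in the normoxic pools of 4 h. Insig1 was at -0.95 (adjusted p = 5.12e-05) in hypoxic and -0.29 (adjusted p = 0.265) in normoxic pools. Of 12 tested genes of fatty acid synthesis Scd2 alone was called, with -0.43 (standard error 0.10, adjusted p = 0.0324), a call lost without hypoxic replicate 1, 2 or 3 or normoxic replicate 1 or 2 (adjusted p 0.0521 to 0.193). The sterol response element core TCACNCCAC was in a promoter of 1.44% of all genes and of 1 of 19 genes of this cholesterol list (5.26%). It was not in those of Idi1, Insig1 or Msmo1, and no promoter of Sqle was at hand.

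Stress genes of the endoplasmic reticulum were close to the controls. Of 26 tested chaperones and genes of the unfolded protein response Xbp1, the transcription factor that is spliced by Ire1, was called, with -0.36 (standard error 0.08, adjusted p = 0.0285) on its brightest probe set and called on 2 of 3. The list median was -0.08. On the brightest probe set Xbp1 was lost without any 1 of the 6 pools (adjusted p 0.0672 to 0.102), and against the other normoxic pools it was -0.05 (adjusted p = 0.694) in the hypoxic and 0.31 (adjusted p = 0.0334) in the normoxic pools of 4 h. The ER stress element (CCAAT, 9 further bases and CCACG) was in a promoter of 34.8% of 23 genes of this list and of 0.137% of all genes, and not in that of Xbp1.

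Markers of retinal cell types moved little, and in bulk tissue fewer cells of a type and less RNA per cell cannot be told apart. Rod markers, 16 tested, gave no call and a median of -0.09. Of 9 tested cone markers 2 were called lower (22.2%, against 0.646% of all genes) and none higher. Pde6h, the inhibitory subunit of the cone phosphodiesterase, had 11.15, 11.32 and 11.28 in the hypoxic pools and 11.68, 11.65 and 11.74 in the normoxic pools, a difference of -0.44 (standard error 0.07, adjusted p = 0.00209), and both of its probe sets were called. Gnat2, the alpha subunit of cone transducin, had 10.97, 11.03 and 10.96 in the hypoxic pools and 11.35, 11.30 and 11.32 in the normoxic pools, a difference of -0.33 (standard error 0.07, adjusted p = 0.0186), a call lost without hypoxic replicate 1 or 3 or normoxic replicate 1 or 3 (adjusted p 0.0683 to 0.101). Opn1sw, the short-wavelength opsin of cones, was called on its dimmer probe set, at -0.60 (adjusted p = 0.021), and lost without hypoxic replicate 1 or 2 or normoxic replicate 2 or 3 (adjusted p 0.0506 to 0.147), while its brightest differed by -0.22 (adjusted p = 0.144). The other 6 were not called. Cone markers moved both ways, with 4 positive differences, the largest 0.54, 5 negative ones and a median of -0.18. The pools did not overlap in 2 of the positive and 3 of the negative ones (1905 and 1041 of all 10059 genes). Relative to the other normoxic pools Pde6h was -0.50 (adjusted p = 1.5e-05) in the hypoxic and -0.06 (adjusted p = 0.713) in the normoxic pools of 4 h, and Gnat2 -0.50 (adjusted p = 1.47e-05) and -0.17 (adjusted p = 0.178).

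Of 14 tested Müller glia markers Abca8a, a lipid transporter, fell, with 11.34, 11.49 and 11.27 in the hypoxic pools and 11.91, 11.90 and 11.87 in the normoxic pools and a difference of -0.53 (standard error 0.08, adjusted p = 0.00136), and the median was -0.10. Glul, the glutamine synthetase of these cells, differed by -0.56 (adjusted p = 0.00626) on 1 probe set, a call lost without hypoxic replicate 1 (adjusted p = 0.0602), and by -0.12 (adjusted p = 0.436) on its brightest. Of 7 tested endothelial markers Kdr, the receptor of vascular endothelial growth factor, was the 1 called, at -0.54 (standard error 0.13, adjusted p = 0.0378). Kdr was also low at 0 h (-0.71) and at 2 h (-0.99), and its 4 h call was lost without hypoxic replicate 1 or 3 or normoxic replicate 1, 2 or 3 (adjusted p 0.0819 to 0.221). No marker was called of bipolar cells (8 tested, median -0.12), amacrine and horizontal cells (9, -0.08), ganglion cells (10, -0.05), pericytes (3, -0.24), microglia and macrophages (6, -0.22), fibroblasts (4, -0.29) or skeletal muscle (1, 0.10). Of 9 tested markers of the retinal pigment epithelium, a layer that adheres to the isolated retina to a varying degree, none was called, 8 were positive and the median was 0.43. Their list mean was 6.98 to 7.59 in hypoxic and 6.66 to 7.17 in normoxic pools, and 6 further markers lay below the signal threshold. All 15 tested lens markers were negative with a median of -0.43, against -1.09 at 16 h and 1.61 at 0 h, and their part in the differences of other genes was not tested.

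Compared with the other time points, the hypoxia effect at 4 h was unlike the one at 0 h in 3233 of 19087 probe sets (16.9%), unlike the one at 2 h in 92 of 18902 (0.487%) and unlike the one at 16 h in 23 of 18820 (0.122%), by contrasts that share no pools. Of the 264 called at 4 h, 122 differed from 0 h, 19 from 2 h, 22 from 16 h, 3 from all of these and 126 from none. These 3 were Acadm, Grm7 and Negr1. The 162 higher probe sets had a median difference of 0.19 at 0 h, 0.36 at 2 h and 0.05 at 16 h, and the 102 lower ones -0.10, -0.34 and 0.00. Of the lower probe sets 24 were called lower and 14 higher at 0 h, and 56 lower and 1 higher at 2 h. In 61 probe sets the rise, and in 23 the fall, was called at 0, 2 and 4 h alike, and 63 were called at 4 h only, 31 higher and 32 lower. Obox6, a homeobox gene of oocytes and embryos, had 7.20, 6.41 and 6.94 in the hypoxic pools and 5.44, 5.33 and 5.79 in the normoxic pools at 4 h, with normoxic pools below the signal threshold, and 4.36 at 0 h, 2.87 at 2 h and 1.33 at 4 h (adjusted p = 0.0055). Without hypoxic replicate 1 it was not tested, since neither mean then reached the threshold.

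The remaining genes among the 15 largest rises and falls were less firm in most cases. Selenbp1, a selenium-binding protein with methanethiol oxidase activity, had 8.90, 8.82 and 8.49 in the hypoxic pools and 7.92, 8.06 and 7.97 in the normoxic pools, with 1.56 at 0 h, 1.19 at 2 h and 0.76 (standard error 0.16, adjusted p = 0.0186) at 4 h. Its call was lost without hypoxic replicate 1 or 2 or normoxic replicate 1 or 3 (adjusted p 0.0721 to 0.134). Camk2d, the delta subunit of calcium/calmodulin-dependent kinase II, rose by 0.95 (adjusted p = 0.0135) on 1 of 6 tested probe sets, which ranged from 0.00 to 0.95, and was lost without hypoxic replicate 1 or 3 or normoxic replicate 3 (adjusted p 0.0764 to 0.0819). 9530057J20Rik, a gene without an assigned function here, measured 9.27, 8.95 and 9.28 in the hypoxic pools and 8.42, 8.42 and 8.23 in the normoxic pools and differed by 0.81 (standard error 0.15, adjusted p = 0.00554), a call that held whichever pool was left out. Of those that fell, Olfm4, a secreted olfactomedin, had 6.37, 6.58 and 6.28 in the hypoxic pools and 7.19, 7.40 and 6.92 in the normoxic pools (difference -0.76, adjusted p = 0.0124), a call lost without hypoxic replicate 1 or 3 or normoxic replicate 1 or 2 (adjusted p 0.0555 to 0.0789). Cpxm1, a carboxypeptidase-like protein, differed by -0.68 (adjusted p = 0.021), a call lost without hypoxic replicate 1 or 3 or normoxic replicate 1 or 2 (adjusted p 0.0742 to 0.183), and 2810030D12Rik by -0.79 (adjusted p = 0.0186), a call lost without hypoxic replicate 1 or normoxic replicate 1 or 3 (adjusted p 0.0527 to 0.14). The hypoxic means of Olfm4, Cpxm1 and 2810030D12Rik lay below the signal threshold.

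The remaining lists gave no call. They were cytosolic heat shock genes (13 tested, median -0.13), CDK inhibitors and p53 targets (12, 0.00), the Bcl2 family (8, -0.02), glucocorticoid-induced genes (13, -0.11), immediate early genes (11, 0.07), the interferon response (9, 0.00), HIF subunits and hydroxylases (9, 0.01), growth and neurotrophic factors (9, -0.02) and lysosome genes (18, 0.06), as well as the cold-inducible RNA binding proteins (1 tested, 0.31). Housekeeping complexes also gave none, among 40 cytosolic ribosomal protein genes, 73 genes of the mitochondrial respiratory chain, 35 proteasome subunits and 39 splicing factors, with medians of -0.01, -0.02, 0.03 and 0.04. Over all lists without a limma call, markers included, 59 of 371 tested genes (15.9%) had an unadjusted p under 0.05, against 17.1% of all genes. Immediate early genes, although close at 4 h between the groups, were above the other normoxic pools in both, with medians of 0.44 in the hypoxic and 0.25 in the normoxic pools of 4 h, and 6 and 4 of 11 genes called higher (3.4% and 0.219% of all genes were called higher). Among 27 tested genes that the study's text names, 3 were called on their brightest probe set, Kif4, Mt1 and Obox6, each higher. Kif4 and Obox6 passed the signal filter through the hypoxic pools alone, so that a higher hypoxic level was a condition of their being tested. On other probe sets Stat3 and Slc2a1 were called as above, Sos1, a Ras exchange factor, at 0.55 (adjusted p = 0.0449) and Dido1, a chromatin protein, at 0.48 (adjusted p = 0.049). The brightest probe set of each ran the other way, at -0.09 (adjusted p = 0.673) for Sos1 and -0.39 (adjusted p = 0.13) for Dido1, and the 3 hypoxic pools of Dido1 lay below the normoxic pools there. The call of Sos1 was lost without hypoxic replicate 1, 2 or 3 or normoxic replicate 1 or 3 (adjusted p 0.082 to 0.233) and that of Dido1 without any 1 of the 6 pools (adjusted p 0.0532 to 0.218). The called probe set of Sos1 passed the signal filter through the hypoxic pools alone.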

How the data were processed

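Log2 expression values of 24 Affymetrix mouse genome arrays were used as deposited. The authors made these log2 values with RMA, per the labels, a method that subtracts background, brings the arrays to 1 distribution and summarises the probes of each set. The version is not given in the sources used here, and the GCRMA values of the study were not used. Precision is limited by the number of arrays. After removal of 64 control probe sets, a probe set was tested when the mean of either group reached 6.69, the lowest point of the density of all signals between its peaks at 3.81 and 7.90. One mean per group was fitted to all arrays with limma 3.58.1 in R 4.3.3 (eBayes, 16 residual degrees of freedom), with Benjamini-Hochberg adjustment over all probe sets of a test. On simulated data 173 probe sets were called, 4 of them false. There 200 changes were placed in probe sets more than 1 above the threshold. The noise was drawn independently for each probe set and pool. A gene was represented by its brightest probe set with 1 symbol (34945 probe sets; 932 had several and 9160 none). Named genes were the 15 largest rises and falls without overlap, the called genes of each list and genes singled out after their values were seen. The members and lists were chosen with earlier results of these data known. The lists of fatty acid oxidation, DNA replication and repair, active zone, neuronal adhesion, calcium and cAMP signalling and neutrophil markers, the gene spans and the comparison with the other normoxic pools were added after values were seen. Alternatives were no filter, a stricter filter, quantile normalization, a trended and robust spread, array weights, a replicate block, the 6 arrays alone, a t-test, another threshold, the mean of all probe sets, and leaving out each pool.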

Additional observations from a re-analysis of the deposited data

Results flagged for a closer look

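The effect of hypoxia at 4 h differed from that at another time point, by contrasts in the same limma model that share no pools, in 3233 probe sets against 0 h, 92 against 2 h and 23 against 16 h. In 27 probe sets a call lower at 0 h stood against a call higher at 4 h, and in 14 a call higher at 0 h against a call lower at 4 h.

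Single genes differed between time points as follows. Against 2 h, the effect at 4 h was smaller for Obox6 (-1.54) and larger for Pdzph1 (0.95) and Acadm (0.63), and it was lower for Grm7 (-0.73) and Gpc6 (-1.01). Against 16 h, it was higher for Kif4 (2.02), Mt1 (1.75), Pros1 (1.34), Acadm (0.83) and Camk1d (0.83), and lower for Tmtc4 (-0.80), Grm7 (-1.04) and Grm8 (-1.24). Groups of 3 pools are too small for a search for single outlying pools. The causes of these differences were not tested.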

How the results depend on the processing

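No called probe set of a named gene changed direction under the settings applied to single probe sets. Averaging the probe sets of a gene was not among these settings, and list counts carry no direction that could turn round. The main counts, 264 called, 162 higher, 102 lower, 14 over 2-fold and 21 genes of the lists written first, moved as follows. Leaving out each pool in turn gave 81 to 206 called, 42 to 144 higher, 39 to 86 lower, 8 to 19 over 2-fold and 11 to 19 listed genes. The 6 arrays alone gave 62, 36 and 26 with 12 listed, where 53 of the 62 were among the 264. A trended and robust spread gave 485, 289 and 196 with 45 listed, array weights 727, 508 and 219 with 46 listed, quantile normalization 157 lower, a filter stricter by 1 gave 9 over 2-fold, and averaging the probe sets of each gene 34 listed. The methods' t-test gave 3, 2 and 1 with 0 over 2-fold after adjustment (14 by limma), and 134, 93 and 41 at 0.001 without adjustment. With 0.1 as the threshold of adjusted p, 578, 371 and 207 were called. Against the 9 other normoxic pools, 1599, 786 and 813 were called, a setting chosen after seeing the data.

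The main fit did not pair pools by replicate number. Residuals of the same number correlated at 0.22, 0.17 and 0.03. Correlations between different numbers were not computed, so whether replicate numbers pair the pools was not tested. With a replicate block, 136 were called, 76 higher and 60 lower.

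Against 2 h (92), no filter gave 39, a trended and robust spread 156, array weights 228, the replicate block 19, the 12 arrays alone 21 and leaving out 1 pool 15 to 179. Against 16 h (23), these gave 15, 62, 57, 6, 7 and 12 to 26. Of the values of single genes and of list counts under all settings, 1783 kept their side of the threshold or stayed close, 537 lost the threshold and 148 moved.

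Signal limits what was seen. Of 45037 probe sets 18498 were bright enough to be tested. On simulated data with 3 pools a group, 70 of 100 differences of 0.5 and 99 of 100 of 1 were found. These differences lay in probe sets more than 1 above the signal threshold, with noise drawn independently for each probe set and pool. Detection in dimmer probe sets, or with variation shared within a pool, was not tested. Of the 264 calls 61 held whichever pool was left out. All tests assume a spread shared over the groups.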
